A study of Mus musculus with 16 samples.

Results

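Ddit3 encodes CHOP, a transcription factor that is made when cells are under stress, and it was examined here with 9 other genes of the integrated stress response: Atf4, Atf3, Trib3, Chac1, Asns, Sesn2, Ddit4, Ppp1r15a and Hspa5. These 10 genes were picked by name, Ddit3 because it was known to be higher in Sp1-/- cells, and each was read from its brightest probe among 28689 genes tested. The question was whether Ddit3 differed between Sp1-/- and wild-type cells alone or together with its pathway. The study followed blood formation in culture from mouse embryonic stem (ES) cells that were either wild type (Sp1+/+, titled E14, strain given as C57BL/6) or Sp1-/-. The Sp1-/- cells make a truncated Sp1 that lacks the DNA-binding domain, and they are 1 ES cell clone. From each genotype 4 populations were sorted: Flk1+ cells, which contain the haemangioblast; hemogenic endothelium I (HE1, KIT+ Tie2+ CD41-); hemogenic endothelium II (HE2, KIT+ Tie2+ CD41+); and progenitors (KIT+ Tie2- CD41+). Each of the 8 groups had 2 arrays, 16 in all, and no cells were treated with a stressor.

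In the integrated stress response, kinases that sense amino acid shortage, heme shortage, double-stranded RNA or unfolded protein in the endoplasmic reticulum (ER) phosphorylate the translation factor eIF2 alpha. General protein synthesis then slows while the mRNA of the transcription factor ATF4 is translated more, and ATF4 switches on Ddit3, Trib3, Chac1, Asns and genes for amino acid supply. ATF4 is controlled mainly through translation, so its mRNA is not a direct measure of its protein. The ER has further stress pathways, through ATF6 and XBP1, whose classical target is the chaperone gene Hspa5. Sp1 is a widely expressed factor that binds GC-rich promoter elements.

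The 8 arrays of each genotype were on 1 slide of their own, so genotype and slide cannot be told apart in any genotype comparison; stage comparisons within a genotype lie within a slide. On the arrays 67.0% to 77.14% of probes were well above background and no spot was saturated. All 10 genes were well above background on all 16 arrays. The Sp1 probe was lower in Sp1-/- cells by 2.28 to 3.28 log2 units in the 4 populations (limma, adjusted p from 1.49e-06 to 4.67e-05). The mutant allele still makes a truncated product, and which part of the transcript this probe reads is not given here. Markers followed the sort labels: the mean log2 intensity of 5 mesoderm markers was 12.81 to 13.61 in Flk1+ cells and 8.43 to 9.12 in the other populations, and that of 5 endothelial markers was highest in HE1 (12.94 to 13.20). Several marker lists of other cell types moved with genotype. The 10 erythroid markers averaged 12.48 to 13.70 in Sp1+/+ progenitors and 15.22 to 15.23 in Sp1-/- progenitors, and 10.49 to 11.48 against 12.21 to 12.25 in HE2. In progenitors 5 endothelial markers averaged 10.02 to 11.06 against 9.33 to 9.64. Of them Cdh5 was called lower. At an unadjusted limma p under 0.05, 3 of the 5 were lower and 1 higher, beside 14.7% and 15.4% of all genes. The 4 macrophage markers averaged 10.14 to 10.60 against 10.94 to 11.09 in progenitors (Csf1r and Mpeg1 called higher). The 5 cardiac markers averaged 8.53 to 8.89 against 9.47 to 9.62 in Flk1+ cells (2 called higher, 1 lower), and in HE1 9.31 to 9.34 against 10.13 to 10.55 (3 called higher). Whichever HE1 array was left out, these 3 HE1 calls did not all hold. In progenitors the cardiac markers averaged 8.08 to 8.36 against 7.14 to 7.35, with Nkx2-5 called lower. Of 5 blood progenitor markers, Runx1 and Gfi1b were called higher in HE1 and Kit lower in progenitors. The calls of Nkx2-5 and Kit in progenitors were lost without replicate 1 of Sp1+/+ progenitors. Of all genes, 2.16%, 2.76%, 2.56% and 5.35% were called in Flk1+, HE1, HE2 and progenitors. The part of these markers in the results below was not tested. In sorted bulk samples, more cells of a type and more RNA per cell cannot be told apart.

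The stretches before the transcription start of 5 genes are shown because these genes stand for the branches compared below: Ddit3 itself, 3 genes switched on by ATF4, and Hspa5 for the ER chaperone branch. They are the 250 bases before the RefSeq start on GRCm38.p6, written 5′ to 3′ in the direction of the gene. Capitals mark matches on either strand to TGATGNAA (the core of the C/EBP-ATF response element, where ATF4 binds), GGGCGG (the GC box, the core of the Sp1 element), the ER stress response element (its full consensus) and the cAMP response element TGACGTCA.
Ddit3, chr10:127290543-127290792, plus strand: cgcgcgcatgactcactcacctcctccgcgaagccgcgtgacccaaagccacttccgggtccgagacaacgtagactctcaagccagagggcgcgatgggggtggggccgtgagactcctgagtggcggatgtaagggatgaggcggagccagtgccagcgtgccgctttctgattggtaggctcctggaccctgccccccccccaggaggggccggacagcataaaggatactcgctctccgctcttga
Trib3, chr2:152344061-152344310, minus strand: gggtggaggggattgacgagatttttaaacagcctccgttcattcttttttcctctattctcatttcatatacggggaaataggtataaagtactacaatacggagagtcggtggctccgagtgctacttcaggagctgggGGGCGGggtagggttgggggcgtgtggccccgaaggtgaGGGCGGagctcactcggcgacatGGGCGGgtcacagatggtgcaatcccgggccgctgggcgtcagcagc
Chac1, chr2:119350992-119351241, plus strand: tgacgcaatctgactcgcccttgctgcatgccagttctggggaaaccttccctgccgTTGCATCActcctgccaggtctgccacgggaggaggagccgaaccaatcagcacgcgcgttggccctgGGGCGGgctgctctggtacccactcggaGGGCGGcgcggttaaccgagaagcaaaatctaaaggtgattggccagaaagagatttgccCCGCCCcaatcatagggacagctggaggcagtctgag
Asns, chr6:7693210-7693459, minus strand: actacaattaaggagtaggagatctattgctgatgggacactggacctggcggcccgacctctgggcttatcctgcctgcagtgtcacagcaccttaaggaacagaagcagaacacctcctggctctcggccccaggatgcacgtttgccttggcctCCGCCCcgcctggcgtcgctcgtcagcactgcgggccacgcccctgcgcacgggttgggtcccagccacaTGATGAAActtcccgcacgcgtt
Hspa5, chr2:34771840-34772089, plus strand: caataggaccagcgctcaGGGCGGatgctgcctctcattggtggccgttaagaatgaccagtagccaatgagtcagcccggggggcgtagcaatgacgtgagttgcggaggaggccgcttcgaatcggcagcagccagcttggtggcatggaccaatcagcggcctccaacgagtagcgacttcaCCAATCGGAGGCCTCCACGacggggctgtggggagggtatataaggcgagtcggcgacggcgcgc
The C/EBP-ATF core was in the promoters of 3 of the 10 genes, Chac1, Asns and Atf3, and in 3.45% of the 32851 mouse promoter windows of the same length. In Chac1 it began 193 bases before the start (minus strand of the gene) and in Asns 23 bases before it. The GC box was in 7 of the 10, with 3 matches each in Trib3 and Chac1, 5 in Atf3 and 1 each in Asns, Sesn2, Ddit4 and Hspa5, against 32.7% of all windows. The windows of Ddit3 and Atf4 held none of the 4 motifs, and that of Ppp1r15a held only a cAMP response element, found in 1.55% of all windows. Elements outside the 250 bases, or spelled differently, were not searched for. The absence of a match therefore does not show that a gene lacks the element. Hspa5 alone among the 10 held the ER stress response element, 65 bases before its start, which was in 0.113% of all windows. A match is a run of letters, not a site shown to be bound, and the arrays do not assay these windows. The study also mapped Sp1 binding by chromatin immunoprecipitation and sequencing in wild-type Flk1+ cells and progenitors. Those binding data were not used here.

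Ddit3, on chromosome 10, was the gene that led to this choice, so its genotype differences are described without a test. In Flk1+ cells its deposited log2 intensity was 8.64 and 8.23 on the 2 Sp1+/+ arrays and 9.56 and 9.92 on the 2 Sp1-/- arrays. In HE1 it was 8.69 and 8.70 against 10.01 and 9.68, and in HE2 8.98 and 8.59 against 11.11 and 10.30. In progenitors it was 9.15 and 9.05 in Sp1+/+ and 11.46 and 10.93 in Sp1-/- cells. The Sp1-/- arrays therefore lay above the Sp1+/+ arrays in every population, without overlap. The differences were 1.31, 1.15, 1.92 and 2.10 log2 units in Flk1+, HE1, HE2 and progenitors (SE 0.27, 2 arrays per group), which are 2.47-, 2.22-, 3.78- and 4.27-fold. Of all genes tested, 0.491%, 1.04%, 0.129% and 0.275% had a difference at least as high.

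Ordered by group mean, Ddit3 went from 8.44 in Sp1+/+ Flk1+ through 8.70 in HE1 and 8.79 in HE2 to 9.10 in progenitors, and then from 9.74 in Sp1-/- Flk1+ through 9.85 in HE1 and 10.71 in HE2 to 11.20 in progenitors. All 8 Sp1+/+ arrays were below all 8 Sp1-/- arrays. Among neighbours in this order the arrays of Sp1+/+ HE1 and HE2, of Sp1-/- Flk1+ and HE1, and of Sp1-/- HE2 and progenitors overlapped. Along the Sp1+/+ stages the change was 0.26 from Flk1+ to HE1 and 0.09 from HE1 to HE2 (SE 0.27 each, limma, adjusted p = 0.549 and 0.933). In Sp1-/- cells it was 0.11 and then 0.86 (SE 0.27 each), the latter under 2-fold. These Sp1-/- changes are given without a test, since high Sp1-/- values led to the choice of Ddit3. Without replicate 2 of Sp1-/- HE2 the change from HE1 to HE2 was 1.27, and without replicate 1 it was 0.46.

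**Figure D1:**
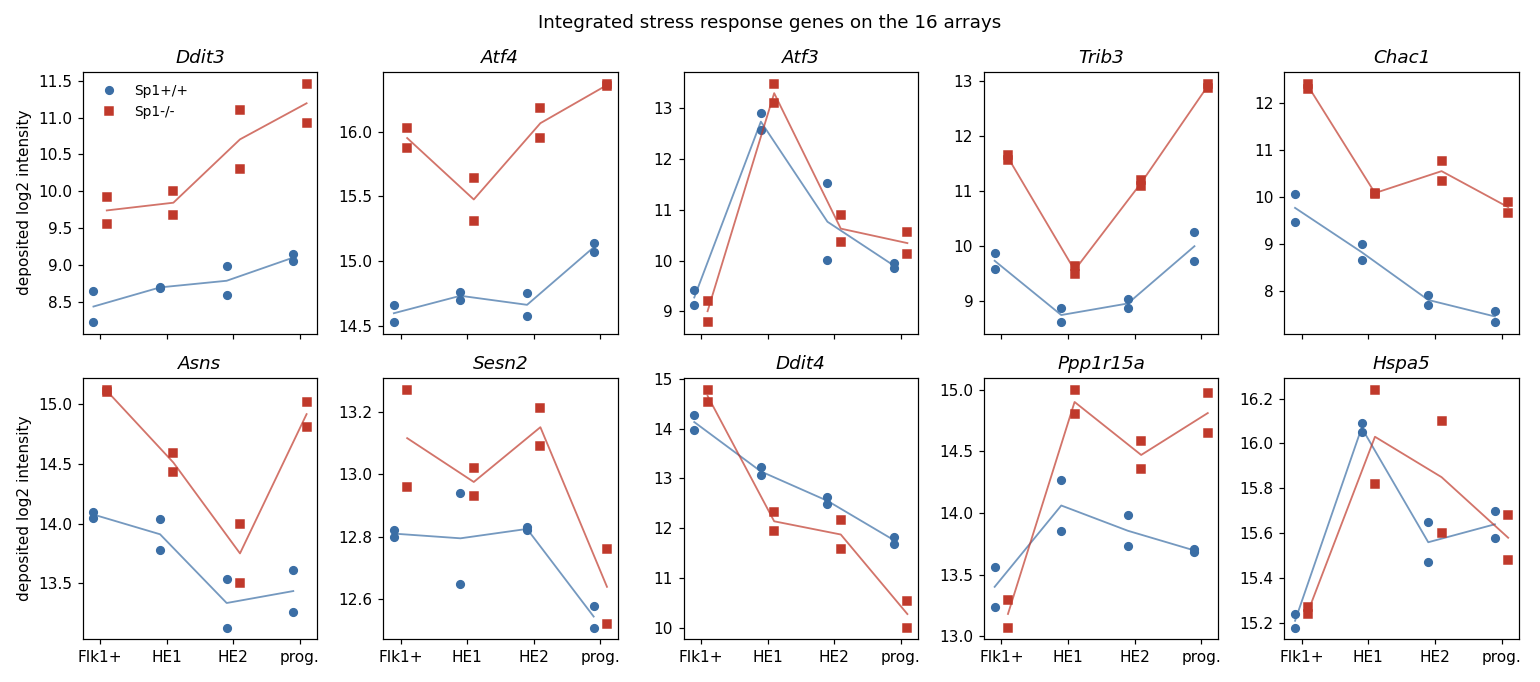
Deposited log2 intensity (vertical axes, each panel on its own scale) of the 10 genes in the 4 sorted populations (horizontal axes; prog., progenitors). Circles are Sp1+/+ arrays, squares Sp1-/- arrays, 2 per group, and lines join the group means. The 8 Sp1-/- arrays lie above the 8 Sp1+/+ arrays for Ddit3 and Atf4, whereas Atf3 peaks in HE1 in both genotypes and Hspa5 overlaps in all 4 populations.

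The other 9 genes were tested in the same limma fit over all genes. A gene was called when the unadjusted p was at most 0.01 and the change at least 2-fold, and Benjamini-Hochberg adjusted p-values are given beside. In Flk1+ cells 4 of the 9 were called, all higher in Sp1-/- cells (Atf4, Trib3, Chac1, Asns), against 2.16% of all genes called in either direction and 1.02% called higher. In HE1 2 were called (Chac1 higher, Ddit4 lower; 2.76% of all genes), in HE2 3 (Atf4, Trib3 and Chac1, all higher; 2.56% of all genes) and in progenitors 6 (Atf4, Trib3, Chac1, Asns and Ppp1r15a higher, Ddit4 lower; 5.35% of all genes). By adjusted p alone, at 0.05, the counts were 4, 5, 3 and 6 of 9, beside 8.89%, 13%, 7.2% and 16.7% of all genes. At least 1 other gene of the pathway was thus called higher beside Ddit3 in each population. Which population had the fewest called depended on the rule: HE1 with the 2-fold limit and HE2 by adjusted p alone. Leaving out 1 array moved the HE1 count from 1 to 3. The median difference of the 9 genes was 0.53, 0.60, 0.42 and 1.12 in Flk1+, HE1, HE2 and progenitors, and that of all genes was 0.015 to 0.025. The 9 were chosen with earlier results of these arrays known, so these counts describe the pathway and are not an independent test of it.

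**Figure D2:**
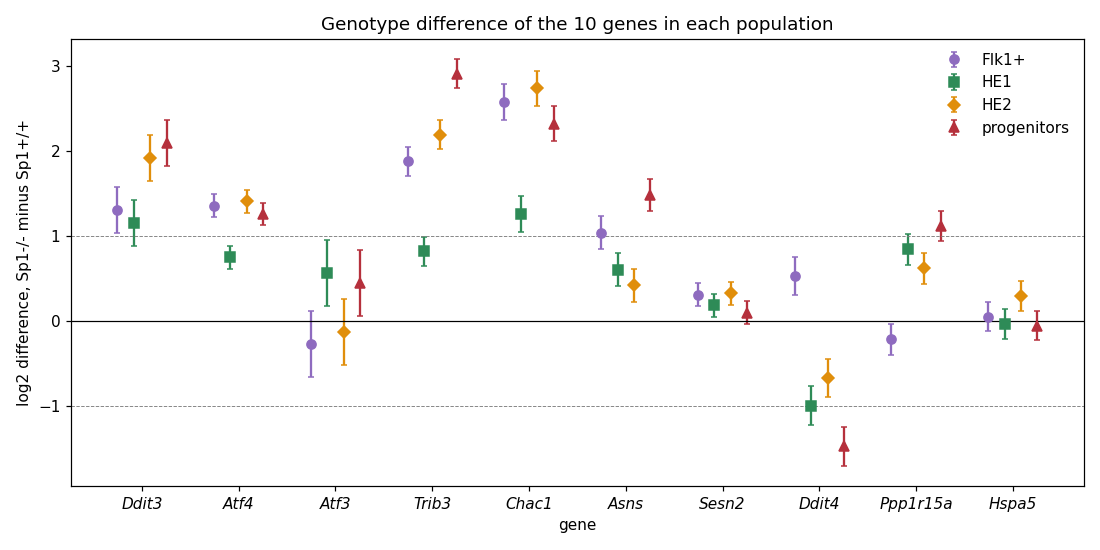
Difference in deposited log2 intensity, Sp1-/- minus Sp1+/+ (vertical axis), for each of the 10 genes (horizontal axis) in the 4 populations, with the standard error of the limma fit as bars (2 arrays per group). Dashed lines mark 2-fold in either direction. Ddit3, Atf4, Trib3 and Chac1 are above 0 in all populations, with HE1 lowest; Ddit4 falls from 0.53 in Flk1+ cells to -1.48 in progenitors; Atf3, Sesn2 and Hspa5 stay within 2-fold.

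Atf4, which encodes the central transcription factor of the response, was higher in Sp1-/- cells with little spread. Its log2 intensity in Flk1+ cells was 14.66 and 14.53 in Sp1+/+ and 15.87 and 16.03 in Sp1-/- cells. In HE1 it was 14.76 and 14.70 against 15.64 and 15.31, in HE2 14.57 and 14.75 against 16.18 and 15.95, and in progenitors 15.07 and 15.14 against 16.37 and 16.35. No Sp1-/- array was as low as any Sp1+/+ array. The gene rose by 1.36 in Flk1+ cells (SE 0.133, limma adjusted p = 0.000173), 1.41 in HE2 (7.74e-05) and 1.26 in progenitors (8.76e-05). In HE1 the difference of 0.75 had an adjusted p of 0.00554 but was under 2-fold. A second, dimmer Atf4 probe differed by 1.14, 0.61, 1.41 and 1.41 in the same order of populations.

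Trib3 encodes a pseudokinase that is induced by ATF4 and CHOP and that in turn holds back ATF4. In Flk1+ cells its log2 intensity was 9.88 and 9.59 in Sp1+/+ and 11.56 and 11.66 in Sp1-/- cells, in HE2 8.87 and 9.05 against 11.09 and 11.21, and in progenitors 9.74 and 10.26 against 12.87 and 12.95. The difference was 1.88 in Flk1+ cells (SE 0.169, limma adjusted p = 0.000124), 2.19 in HE2 (1.68e-05) and 2.91 in progenitors (2.4e-06), the last of them a 7.52-fold change. In HE1, where the arrays read 8.87 and 8.63 against 9.64 and 9.49, it was 0.82 (adjusted p = 0.0116), under 2-fold although the arrays did not overlap.

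Chac1, which encodes an enzyme that breaks down glutathione and is a target of ATF4, rose in all 4 populations. In Flk1+ cells it read 10.08 and 9.47 in Sp1+/+ and 12.41 and 12.29 in Sp1-/- cells, in HE1 8.66 and 9.01 against 10.10 and 10.08, in HE2 7.71 and 7.93 against 10.34 and 10.77, and in progenitors 7.36 and 7.58 against 9.67 and 9.91. The rise was 2.58 (SE 0.21, limma adjusted p = 5.6e-05), 1.26 (0.00406), 2.74 (1.65e-05) and 2.32 (3.08e-05), or 5.96-, 2.39-, 6.66- and 4.99-fold. Chac1 was the one gene of the 9 called in every population, and its lowest difference was in HE1.

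Asns encodes asparagine synthetase, an ATF4 target whose promoter carries the element shown above. In Flk1+ cells it was 14.10 and 14.05 in Sp1+/+ and 15.12 and 15.10 in Sp1-/- cells, and in progenitors 13.26 and 13.61 against 14.81 and 15.02. It rose by 1.04 in Flk1+ cells (SE 0.192, limma adjusted p = 0.00709) and by 1.48 in progenitors (0.000351). The Flk1+ difference was 0.69 and no longer called when processed signals scaled to the 75th percentile were used. In HE1 (13.78 and 14.04 against 14.43 and 14.59) the difference was 0.60 (adjusted p = 0.0625) and in HE2 (13.13 and 13.54 against 13.50 and 14.00) 0.42 (adjusted p = 0.248, 95% interval -0.005 to 0.84), where the arrays overlapped.

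Ppp1r15a encodes GADD34, the phosphatase subunit that removes the phosphate from eIF2 alpha and so ends the response. In Flk1+ cells it was 13.24 and 13.56 in Sp1+/+ and 13.07 and 13.29 in Sp1-/- cells, which overlap (difference -0.22, limma adjusted p = 0.513). In progenitors it was 13.71 and 13.68 against 14.97 and 14.65, a rise of 1.12 (SE 0.18, adjusted p = 0.00143). In HE1 it was 14.27 and 13.85 against 15.00 and 14.80, and in HE2 13.73 and 13.98 against 14.58 and 14.36. These differences were 0.84 (adjusted p = 0.0132) and 0.62 (0.0651), both under 2-fold. The HE1 difference was 1.05 without replicate 1 of Sp1+/+ HE1, past 2-fold, and the progenitor difference was 0.96 without replicate 1 of Sp1-/- progenitors and 0.97 with processed signals, both just under it.

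Ddit4 encodes REDD1, an inhibitor of mTORC1 that is also induced by low oxygen, glucocorticoids and p53, and it moved the other way. In Flk1+ cells it was 14.28 and 13.98 in Sp1+/+ and 14.53 and 14.78 in Sp1-/- cells (difference 0.53, limma adjusted p = 0.185). In HE1 it was 13.06 and 13.22 against 12.33 and 11.95, and in progenitors 11.83 and 11.69 against 10.55 and 10.01. It fell by 1.48 in progenitors (SE 0.226, adjusted p = 0.000994) and by 1.00 in HE1 (0.0165), which is exactly 2-fold. The HE1 call was lost without replicate 2 of Sp1+/+ (-0.92) or replicate 2 of Sp1-/- (-0.81). In HE2, where it was 12.48 and 12.62 against 12.17 and 11.58, the difference was -0.68 (adjusted p = 0.104), with no overlap of the arrays.

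Atf3, Sesn2 and Hspa5 were called in none of the 4 populations. Atf3 encodes a stress-induced transcription factor that also responds rapidly to growth signals, and its differences were -0.27, 0.56, -0.14 and 0.45 in Flk1+, HE1, HE2 and progenitors (SE 0.389, limma adjusted p from 0.377 to 0.895). The widest 95% limits over the 4 populations were -1.12 and 1.41, so a 2-fold change of Atf3 in either direction was not excluded in some of them. Sesn2, whose product restrains mTORC1 when leucine is short, ranged from 12.51 to 13.27 over the 16 arrays and differed by 0.31, 0.18, 0.33 and 0.10 (SE 0.136), and the upper 95% limit was 0.62 at most. Hspa5 encodes BiP, the main Hsp70 chaperone of the ER; it ranged from 15.18 to 16.24 and differed by 0.05, -0.04, 0.29 and -0.06 (SE 0.172). The arrays of Hspa5 overlapped in all populations and its 95% limits lay between -0.44 and 0.67.

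The size of the genotype difference was compared between populations for the 9 genes. From Flk1+ cells to progenitors the difference grew by 1.04 for Trib3 (SE 0.24, limma adjusted p = 0.0258) and by 1.33 for Ppp1r15a (SE 0.255, 0.0106), and it changed by -2 for Ddit4 (SE 0.319, 0.00419), which are 3 of 9 genes called against 5% of all genes. The Trib3 change was under 2-fold without replicate 1 of Sp1+/+ Flk1+ (0.89) or of Sp1+/+ progenitors (0.78), without replicate 1 of Sp1-/- Flk1+ (0.99), without replicate 2 of Sp1-/- progenitors (1.00) and with processed signals (0.96). Atf4 (-0.10, adjusted p = 0.82) and Chac1 (-0.26, 0.692) were not called. For Ddit3 the change was 0.79 (SE 0.382), given without a test.

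Since Atf4, Trib3 and Chac1 differed least in HE1, the difference in HE1 was set against that in Flk1+ cells and in HE2, a comparison added after the values were seen. The 2 Sp1-/- HE1 arrays were the least alike of the 8 groups. Their correlation over all genes was 0.9877, against 0.9926 or more in the other groups. Their median SD over genes was 0.17, against 0.071 to 0.113. The SE of the fit pools the groups and does not show this. Against Flk1+ cells Trib3 was lower by 1.06 log2 units (SE 0.24) and Chac1 by 1.32 (SE 0.297). Ddit4 was lower by 1.52 (SE 0.319) and Ppp1r15a was higher by 1.06 (SE 0.255). These 4 of 9 met the rule for a call, as did 2.11% of all genes. Small HE1 differences of Atf4, Trib3 and Chac1 led to the comparison, so the direction of their changes was fixed by the choice. The calls of Trib3 and Chac1 are therefore not a test, and the count of 4 cannot be read against the share of all genes. Of the 4 only Ddit4, which did not lead to the comparison, had a limma adjusted p under 0.05 (0.0464), with 0.0771 for Ppp1r15a. From HE1 to HE2 the difference of Trib3 increased by 1.38 (SE 0.24) and that of Chac1 by 1.48 (SE 0.297). Both met the rule for a call (2 of 9, and 0.993% of all genes) and neither passed the adjustment. As both led to the comparison, these calls are not a test either. Leaving out replicate 2 of Sp1+/+ Flk1+ left 2 of the 4 calls against Flk1+ cells, Chac1 and Ddit4.

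Within a genotype the stages lie on 1 slide. From Flk1+ to HE1, Atf3 rose by 3.46 in Sp1+/+ cells (from 9.12 and 9.43 to 12.57 and 12.90, limma adjusted p = 3.87e-05) and by 4.29 in Sp1-/- cells (from 8.80 and 9.21 to 13.48 and 13.11, 7.02e-06). From HE1 to HE2 it fell by 1.97 in Sp1+/+ cells (limma adjusted p = 0.0064) and fell by 2.67 in Sp1-/- cells (0.000555). The Sp1+/+ change was -1.22 without replicate 1 of HE2, whose value was 10.01 beside 11.52 on the other array. Atf3 was therefore highest in HE1 in both genotypes, on 2 arrays per group. Flk1+ cells were isolated from embryoid bodies on magnetic columns, and HE1 cells from blast culture by flow sorting. From Flk1+ to HE1, stage and handling cannot be told apart.

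In Sp1+/+ cells Atf3 was the only one of the 9 genes called from Flk1+ to HE1 (11.1% of all genes were called), with Trib3, Chac1 and Ddit4 at -0.99, -0.94 and -0.99, just short of 2-fold and called together when replicate 2 of Sp1+/+ Flk1+ was left out. In Sp1-/- cells 5 of 9 were called (12.4% of all genes): Trib3, Chac1 and Ddit4 fell by 2.05, 2.26 and 2.52, while Atf3 and Ppp1r15a (1.72) rose (limma adjusted p 2.04e-05 or less for each). From HE1 to HE2, Chac1 fell by 1.02 in Sp1+/+ cells (adjusted p = 0.00815; 2 of 9 called with Atf3, 4.32% of all genes), and this was under 2-fold without replicate 1 of HE2 (-0.91) or replicate 2 of HE1 (-0.84). In Sp1-/- cells Trib3 rose by 1.59 (8.07e-05; 2 of 9 called with Atf3, 7.31% of all genes).

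From HE2 to progenitors Trib3 rose in both genotypes, by 1.04 in Sp1+/+ (limma adjusted p = 0.00561; 1 of 9 called, 2.28% of all genes) and by 1.76 in Sp1-/- cells (5.47e-05; 3 of 9 called, 6.53% of all genes). The Sp1+/+ rise was under 2-fold without replicate 1 of HE2 (0.95) or replicate 2 of progenitors (0.78). Asns also rose (1.17) and Ddit4 fell (by 1.60) in Sp1-/- cells at this step; without replicate 1 of Sp1-/- HE2, Asns was at 0.92. These steps share arrays with the genotype comparisons and are not separate evidence for them.

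The genes whose 16 values were most like those of Ddit3 were Pigyl (Pearson r = 0.949), Hspa2 (0.946), Atf4 (0.942), LOC547349 (0.941) and Usp20 (0.935), out of 16543 genes with a symbol. Atf4 was at rank 3. Trib3 followed at 0.816 (rank 162), Ppp1r15a at 0.626, Asns at 0.441 and Chac1 at 0.425, while Sesn2 (0.222), Hspa5 (0.206) and Atf3 (-0.001) were unlike Ddit3 and Ddit4 ran against it (-0.583). The 16 arrays share genotype, slide and stage, so these values describe a pattern and carry no test.

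Wider lists were then counted in the same fit. Of 6 genes for the eIF2 kinases, eIF2 alpha and its constitutive phosphatase subunit, Eif2ak2, the kinase PKR for double-stranded RNA, fell by 1.04 in Flk1+ cells (SE 0.183, limma adjusted p = 0.00553; -0.85 and under 2-fold without replicate 2 of Sp1+/+). Eif2ak1, the heme-regulated kinase that is abundant in erythroid cells, rose by 1.19 in progenitors (SE 0.11, 3.73e-05). There the erythroid markers were also higher, and 5 of the 10 were called (3 with processed signals, 8 when the progenitor arrays were fitted alone). All 5 were higher, beside 1.96% of all genes called higher. No other gene of this list was called in any population. Of all genes, 2.16%, 2.76%, 2.56% and 5.35% were called in Flk1+, HE1, HE2 and progenitors. At these shares few of 6 genes would be called. The arrays measure the kinases' mRNA and not their activity.

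Among 32 tested ATF4 targets for amino acid synthesis and uptake and tRNA charging, the number called higher was 2 (Flk1+), 0 (HE1), 3 (HE2) and 5 (progenitors), and 0 were called lower in any population, beside 1.02%, 1.28%, 1.02% and 1.96% of all genes called higher. Slc7a3, a carrier of arginine and lysine, was the gene of the list with the most change: it rose by 2.28 in Flk1+ cells (SE 0.21, limma adjusted p = 0.000125), 1.80 in HE2 (0.000369) and 2.37 in progenitors (2.65e-05). Mthfd2, of mitochondrial folate metabolism, rose by 1.09 in HE2 (0.00142) and 1.62 in progenitors (4.21e-05), and Slc6a9, a glycine transporter, by 1.17 (0.0209) and 1.65 (0.00134). Gpt2, an alanine aminotransferase, rose by 1.06 in Flk1+ cells (0.00399), and Aldh18a1, of proline synthesis, by 1.1 in progenitors (0.000524). Cth, of cysteine synthesis, also rose in progenitors by 1.03 (0.0091) and is named outside the rule for named genes, after its value was seen. Without replicate 1 of Sp1+/+ progenitors, 3 of the 5 progenitor calls were left, with Aldh18a1 at 0.96 and Cth at 0.88; the HE2 calls of Mthfd2 (0.87) and Slc6a9 (0.99) were under 2-fold without replicate 1 of Sp1-/- and of Sp1+/+ HE2, and that of Gpt2 (0.87) without replicate 2 of Sp1+/+ Flk1+.

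By adjusted p alone, at 0.05, the same list had 16 of 32 genes higher in progenitors, 10 in HE2, 9 in Flk1+ cells and 2 in HE1, beside 7.83%, 2.95%, 4.33% and 5.78% of all genes. In HE1 1 gene was lower and in the other populations 0; at an unadjusted limma p under 0.05 HE1 had 5 genes higher and 3 lower of 32, beside 14.2% and 14.7% of all genes. The list's median difference was 0.32, -0.02, 0.32 and 0.36 in Flk1+, HE1, HE2 and progenitors. The median was lowest in HE1.

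**Figure D3:**
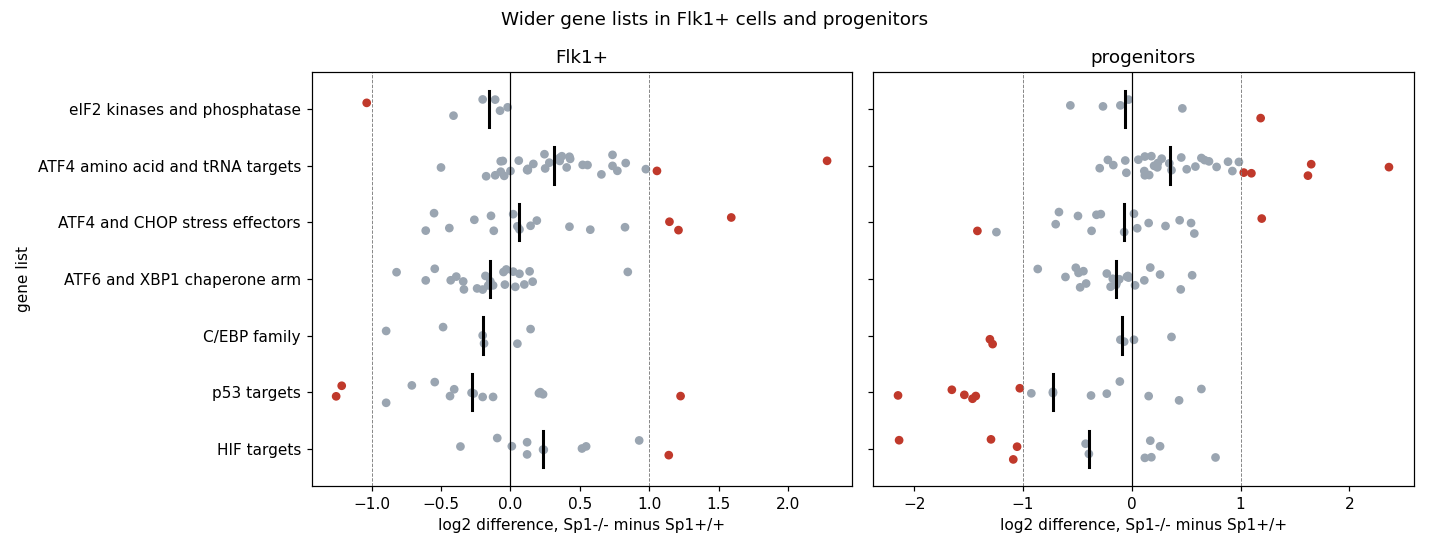
Difference in deposited log2 intensity, Sp1-/- minus Sp1+/+ (horizontal axes), for every tested gene of 7 gene lists (rows) in Flk1+ cells (left) and progenitors (right). Red points were called, grey points were not, black bars are list medians, and dashed lines mark 2-fold; points are spread vertically for legibility. The ATF4 amino acid and tRNA targets have a median of 0.32 and 0.36. The ATF6 and XBP1 chaperone arm has no called gene, beside 2.16% and 5.35% of all genes called. In progenitors 6 of 15 p53 targets were called lower, beside 3.38% of all genes.

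Genes of the ER chaperone branch were counted in the same 4 populations. Of 23 genes of the ATF6 and XBP1 chaperone arm, which include Hsp90b1, Calr, Dnajb9, Herpud1 and Xbp1, 0 were called by limma. This held in either direction in every population, beside 2.16%, 2.76%, 2.56% and 5.35% of all genes called. At such shares few of 23 genes would be called. The median difference of the 23 was -0.15, -0.12, 0.03 and -0.15. By adjusted p at 0.05, 0 were higher, beside 4.33%, 5.78%, 2.95% and 7.83% of all genes. On the lower side there were 3, 3, 1 and 4 in Flk1+, HE1, HE2 and progenitors, beside 4.56%, 7.18%, 4.26% and 8.89% of all genes. At an unadjusted limma p under 0.05, 1 gene of the 23 was higher in each population, beside 12.4%, 14.2%, 9.67% and 15.4% of all genes, and 7, 4, 2 and 6 were lower, beside 11.2%, 14.7%, 11.1% and 14.7%. One gene of this arm reached a call when replicate 1 of Sp1+/+ HE1, replicate 1 of Sp1-/- HE1 or replicate 2 of Sp1-/- progenitors was left out.

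Among 17 tested further effectors of ATF4 and CHOP the calls went both ways, and they numbered 3 (Flk1+), 2 (HE1), 1 (HE2) and 2 (progenitors), beside 2.16%, 2.76%, 2.56% and 5.35% of all genes. In Flk1+ cells 3 rose: Txnip, which inhibits thioredoxin (1.59, SE 0.209, limma adjusted p = 0.00105), the secreted glycoprotein gene Stc2 (1.21, 0.000841) and Jdp2, a repressor of the AP-1 family (1.15, 0.00186). In HE1 Stc2 rose (1.11, 0.00137; 0.98 without replicate 2 of Sp1+/+) and Gdf15, a stress cytokine gene, fell by 2.12 (0.000706). Nupr1, a stress-induced chromatin protein gene, rose in HE2 (1.37, 0.0106) and in progenitors (1.195, 0.0112), and Tnfrsf10b, a death receptor gene that CHOP induces, fell by 1.42 in progenitors (0.000222). The HE2 call of Nupr1 was lost without replicate 2 of Sp1-/- (0.96) and when the 4 arrays of HE2 were fitted alone, and 3 effectors were called in HE2 without replicate 1 of either genotype and 4 with processed signals. The list's median difference was 0.07, -0.22, -0.13 and -0.07 in Flk1+, HE1, HE2 and progenitors, beside 0.015 to 0.025 for all genes. CHOP acts in pairs with C/EBP proteins; of the 6 C/EBP genes Cebpd (-1.31, 0.000798) and Cebpe (-1.28, 0.000165) fell in progenitors, beside 3.38% of all genes called lower there, and 0 were called elsewhere. At an unadjusted limma p under 0.05, 2 of the 6 were lower in Flk1+ cells, 2 were lower in HE1 and 2 were higher in HE2, beside 11.2%, 14.7% and 9.67% of all genes.

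Targets of p53 and of hypoxia-inducible factor (HIF) were counted as further stress lists. Of 15 p53 targets 6 were called lower in progenitors and 0 higher, beside 3.38% of all genes called lower, with a median of -0.73. Fas, a death receptor gene, fell by 2.15 (SE 0.183, limma adjusted p = 2.13e-05), the kinase gene Plk2 by 1.66 (0.00641), Zmat3 by 1.54 (0.00116), Phlda3 by 1.47 (0.00306), and 2 others. Of 11 HIF targets 4 were called lower in progenitors and 0 higher, although 1 was higher by adjusted p at 0.05, with a list median of -0.40: Adm (-2.14, limma adjusted p = 3.11e-05), the glucose transporter gene Slc2a1 (-1.30, 0.0259), Egln3 (-1.09, 0.000561) and Ndrg1 (-1.06, 0.0395). Whichever progenitor array was left out, not all of these calls held. In Flk1+ cells 1 HIF target rose (Bnip3, 1.14, 0.00186; 0.83 with processed signals) and 0 fell, and the p53 targets went both ways (Pmaip1 up, Phlda3 and Ccng1 down; 0 called without replicate 2 of Sp1+/+). In HE1 the HIF target Ndrg1 fell (by 1.45, 0.0136; -0.80 and not called without replicate 2 of Sp1-/-) and 0 p53 targets were called (6 of 15 were lower at an unadjusted limma p under 0.05, beside 14.7% of all genes). In HE2 the calls were Fas, Phlda3 and the HIF target Adm, all lower. Phlda3 was under 2-fold without replicate 2 of either genotype and Adm without replicate 1 of either. Of all genes, 2.16%, 2.76% and 2.56% were called in either direction in Flk1+ cells, HE1 and HE2.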

How the data were processed

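RNA from each sorted population was labelled with Cy3 and hybridised to one-colour Agilent SurePrint G3 Mouse 8x60K arrays. Per the labels and the study's methods the scans were read with Agilent Feature Extraction (10.7.1.1 in the submitters' processing notes), and the authors normalised with limma. The deposited values are log2 intensity; they matched normexp background correction with an offset of 50 and quantile normalisation of the deposited intensity (largest difference 0.0258), not the stated offset of 16 (1.63). Processing used R 4.3.3 and limma 3.58.1: probes with a log2 value of at least 6 at offset 16 on at least 1 array were kept (40058 of 55681), probes were named through RefSeq accessions (20869 of 37932 target names matched, 12 more by symbol), and the brightest probe per gene was tested in 1 fit of 8 groups (8 residual degrees of freedom, lmFit and eBayes). The minimum was set at offset 16 because on the deposited scale nearly all probes (55595) passed it. A call was p of at most 0.01 and at least 2-fold. A rule of adjusted p at 0.05 was read beside it. Named genes were the 10 genes, up to 4 called genes with the largest change per list and population, the 5 genes most correlated with Ddit3, and Sp1. The genes and lists were chosen with earlier results of these data known. Alternatives were other background corrections, scalings, filters and probe rules, a replicate block, the arrays of a comparison alone, and each array left out. The test was checked on simulated data. The labels call the replicates independent and the paper's text calls them biological, but a legend of the study speaks of averaged technical replicates. The p-values measure only the spread between these arrays, whose number limits the precision. Promoter sequences came from RefSeq (GRCm38.p6; all 10 genes matched), searched with Python 3.11.15.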

Additional observations from a re-analysis of the deposited data

Results flagged for a closer look

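The genotype difference was not the same in progenitors as in Flk1+ cells for 3 of the 9 tested genes, by the limma interaction term adjusted over all genes: Trib3 (1.04, adjusted p = 0.0258), Ddit4 (-2, adjusted p = 0.00419) and Ppp1r15a (1.33, adjusted p = 0.0106), in log2 units of the progenitor difference minus the Flk1+ difference. Of all genes, 6.71% had an adjusted p of at most 0.05 for this term. For Trib3 both differences were upward, but their change was under 2-fold with some single arrays left out and with processed signals. For Ddit4 the Flk1+ difference was 0.53 and the progenitor difference -1.48, and for Ppp1r15a they were -0.22 and 1.12. The difference also changed between Flk1+ cells and HE1 for Ddit4 (-1.52, limma adjusted p = 0.0464), beside 1.18% of all genes at 0.05. That comparison was chosen after the values were seen.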

How the results depend on the processing

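The 4 differences of Ddit3 kept their direction under all alternatives; with each array left out in turn they ranged from 1.1 to 1.51 in Flk1+ cells, 0.99 to 1.32 (HE1), 1.52 to 2.33 (HE2) and 1.83 to 2.36 (progenitors). With an array left out, the number of the other 9 genes called for genotype moved in HE1 and progenitors, but not in Flk1+ cells and HE2. By adjusted p at 0.05 that number was 5 in HE1, beside 13% of all genes. From Flk1+ to HE1 in Sp1+/+ cells it was 1 to 4 with an array left out, 2 at offset 16, 4 with processed signals, 2 without background correction and 6 by adjusted p (31.8% of all genes); in Sp1-/- cells it was 5 to 5, and 8 by adjusted p (37% of all genes). From HE1 to HE2 it was 1 to 2 in Sp1+/+ cells, and 1 with the arrays of the comparison alone; in Sp1-/- cells it was 2 to 3, and 4 by adjusted p (24.2% of all genes). From HE2 to progenitors it was 0 to 1 in Sp1+/+ and 2 to 3 in Sp1-/- cells, and 5 in the latter by adjusted p (19.7% of all genes). For the progenitor difference minus the Flk1+ difference it was 3, beside 5% of all genes. Trib3 and Chac1 led to the comparisons of HE1 with Flk1+ cells and with HE2, so the counts for those are not tests against all genes. For the HE1 difference minus the Flk1+ difference the number called was 4, beside 2.11% of all genes. There it was 2 with processed signals and 1 by adjusted p, with or without the 2-fold limit, beside 1.18% of all genes without that limit. For the HE2 difference minus the HE1 difference it was 2 by the limma p at 0.01, beside 0.993% of all genes. By adjusted p it was 0 with or without that limit, beside 0.129% of all genes without it. Each of these counts moved with some array left out. The cause of these changes in the counts was not tested, apart from the adjusted p rule without a fold limit, which admits smaller changes by construction. Processed signals moved the median of all genes by up to 0.15 log2 units. Replicate numbers were not taken to pair the arrays, since the correlation of deviations of same-numbered arrays was not over 0.1 in every pair of groups: r ran from -0.175 to 0.515 over 28 pairs, median 0.04, with 11 over 0.1 and 3 under -0.1, and between genotypes it was 0.231 (Flk1+), 0.286 (HE1), -0.175 (HE2) and -0.12 (progenitors). With the replicate number as a block the counts for genotype were 4, 2, 3 and 6, and those for the 6 stage steps and the 3 changes of the genotype difference were also as without it. The low value minimum applied to the deposited values, chosen after seeing the data, changed none of these counts past 1.5 times. With 2 arrays per group and 1 slide per genotype, slide and genotype cannot be told apart.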
